A study of Mus musculus with 6 samples.

Results

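Genes of the arcuate feeding circuit were examined in the adult female mouse hypothalamus: the peptide genes Agrp, Npy and Cartpt, and the receptor genes Mc3r, Mc4r, Lepr, Ghsr, Npy1r, Npy2r and Npy5r. The 10 genes were taken by symbol from the probe annotation of the array, from probesets assigned to a single gene. Each of 9 of them had 1 such probeset, and all 9 passed the low-signal filter. For Agrp no probeset was assigned to it alone, and it was not analysed here. The 9 probesets stood among 18239 tested, which covered 16663 genes.

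RNA was hybridised to 6 single-colour Affymetrix arrays, 3 for each group. In the CGP group, female C57Bl/6J offspring had been exposed through their mothers to CGP 39551, a competitive blocker of the NMDA type of glutamate receptor, given by mouth at 5 mg/kg over the whole of pregnancy and up to the end of weaning. The control offspring (CON) were of the same strain, sex and age, and the labels give no other agent for either group. The mice were killed at 21 weeks, long after dosing had ended, and RNA of 18 mice was pooled per group. The labels do not say whether each array had a pool of its own. SD and p-values therefore describe array-to-array spread, possibly technical only, and carry no information on how mice differ. The bulk tissue also means that fewer cells of a type and less RNA per cell cannot be told apart.

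Arcuate neurons with opposite effects on feeding sense the hormones of energy balance. One population makes AgRP and neuropeptide Y and promotes eating, while another makes α-MSH from Pomc, often together with CART, and restrains it. Leptin from fat acts on both through Lepr, and ghrelin from the stomach acts mainly on AgRP neurons through Ghsr. Downstream neurons read the balance through the melanocortin receptors Mc3r and Mc4r, at which α-MSH is the agonist and AgRP the antagonist, and through the neuropeptide Y receptors.

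Values are log2 RMA signals, on which a difference of 1 is a doubling. Signals of different probesets depend on their probes, so that levels are compared only within a gene. None of the 9 genes passed the adjusted p of 0.05 in either direction (limma, Benjamini-Hochberg over all tested probesets). Over all tested probesets 28 (0.154%) were higher in CGP and 23 (0.126%) lower, or 37 and 18 with each array centred on its median, and only 2 to 5 and 3 to 8 with any 1 array left out. At an unadjusted p under 0.05, 1 of the 9 genes passed, Cartpt, which is 11.1% of them, beside 11.1% of all tested probesets. The CGP minus CON difference was below 0 for 7 of the 9 genes, with a median of -0.06, against 52.1% of all tested probesets and a median of -0.003.

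**Figure D1:**
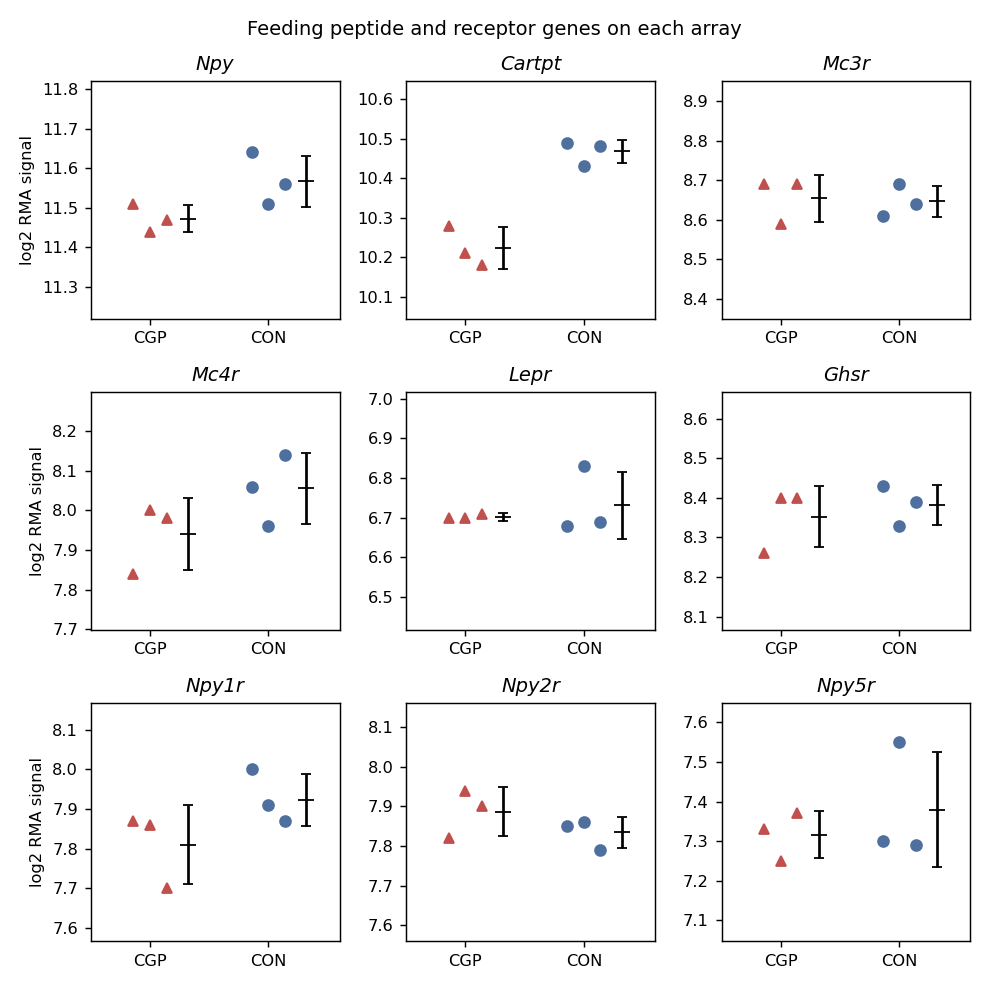
Log2 RMA signal of each of the 9 genes on the 3 CGP arrays (triangles) and the 3 CON arrays (circles), with the mean and SD of each group as a bar beside its points. Every panel spans the same 0.6 units on its own level, and only for Cartpt do the groups lie apart, with CGP at 10.18 to 10.28 and CON at 10.43 to 10.49.

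Among the peptide genes, Cartpt (probeset 10411527), which encodes the precursor of the CART peptides, gave the largest difference of the 9 genes. Its signals were 10.28, 10.21 and 10.18 on the CGP arrays, against 10.49, 10.43 and 10.48 on the CON arrays. Every CGP array lay below every CON array, and the distance between the nearest arrays of the groups was larger than the spread within either. The means were 10.22 ± 0.052 in CGP and 10.47 ± 0.029 in CON (SD, n = 3 arrays each), a log2 difference of -0.24 (standard error 0.041, 95% confidence interval -0.34 to -0.15), which is 0.844-fold. Its adjusted p was 0.0696 in limma, so that it did not pass the threshold. The exact two-sided permutation test over the 6 arrays gave p = 0.1, the smallest value that 3 arrays against 3 allow. Of the 9 genes, 1 was separated in this way downwards and 0 upwards, against 9.95% and 7.59% of all tested probesets. By size, 99.1% of all tested probesets had a smaller difference in either direction than Cartpt.

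The call for Cartpt depended on the variance model and on the set of probesets tested. Its adjusted p was under 0.05 in 3 of 14 other settings of the fit: 8.41e-04 with a trended and robust eBayes step, 0.0342 when only probesets with a mean of at least 7 were tested, and 0.0388 with array weights. In the other 11 it lay between 0.0608 and 0.293. The difference itself varied little, between -0.27 and -0.22 over all 14. Without CGP replicate 1 it was -0.27 (adjusted p = 0.0824), the lowest adjusted p with 1 array left out.

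**Figure D2:**
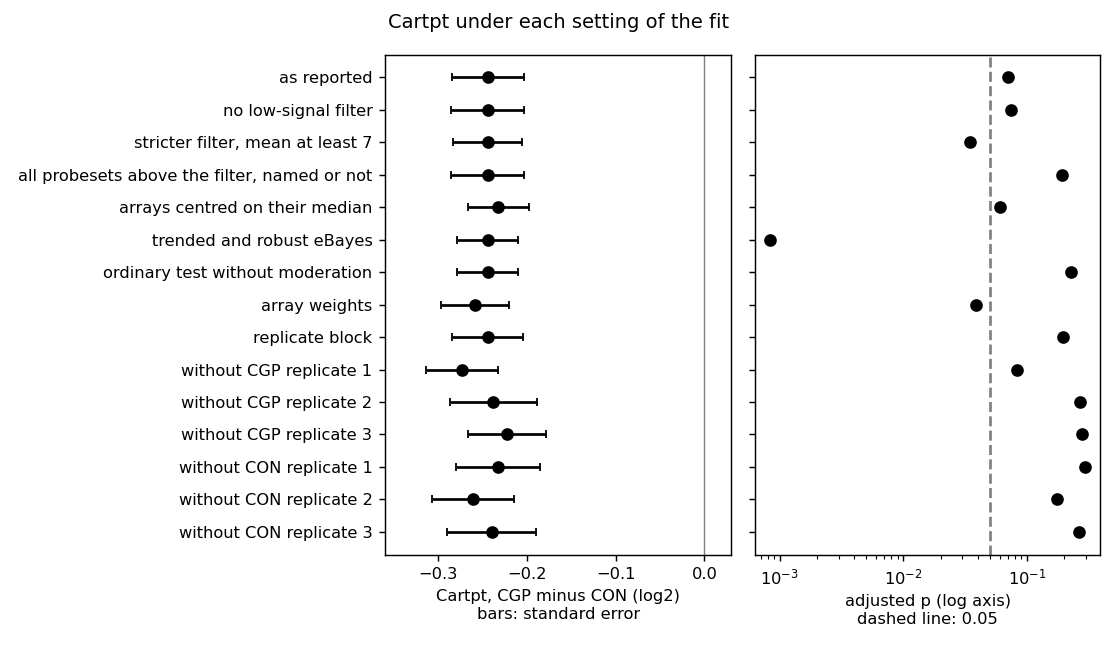
Cartpt under each setting of the fit, 1 row per setting. Left, the log2 difference CGP minus CON with its standard error, which stays between -0.27 and -0.22. Right, the adjusted p on a log axis with the threshold of 0.05 dashed, which 3 settings pass.

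Cartpt is made at many sites besides the arcuate nucleus, among them the lateral hypothalamus, where it shares neurons with Pmch, the gene of melanin-concentrating hormone, and the Edinger-Westphal nucleus of the midbrain, where it accompanies the urocortin gene Ucn. Pmch was at 11.95, 11.89 and 11.95 in CGP, against 11.99, 11.96 and 11.89 in CON, with a difference of -0.02 (adjusted p = 0.906 in limma). Ucn, the only gene read for the Edinger-Westphal nucleus, was at 7.45, 7.59 and 7.63 in CGP, against 7.55, 7.45 and 7.65 in CON. Its difference was 0.01 (adjusted p = 0.984 in limma). For both, the arrays of the groups overlapped. Marker genes of other tissue did move with the groups, in the same direction as Cartpt in the midbrain and the meninges. The marker lists were chosen with earlier results of these data known, so that their counts describe the lists and test nothing. Of all tested probesets, 52.1% had a difference below 0 and 0.126% fell. Of 6 genes of midbrain dopamine neurons all had a difference below 0, with a median of -0.25, and 1 fell (Slc6a3). The smallest was -0.01 for Pitx3, whose groups overlapped. Of 7 genes of the meninges all had a difference below 0, with a median of -0.32, and 4 fell (Prg4, Ogn, Fmod and Slc6a20a). The summed signal was 12.03 to 12.08 in CGP, against 12.32 to 12.37 in CON, for the midbrain genes, and 11.77 to 11.85 in CGP, against 12.12 to 12.15 in CON, for those of the meninges.

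Of all 18239 tested probesets, 8736 had a difference above 0 and 0.154% rose. In the opposite direction to Cartpt, 7 of 7 choroid plexus genes had a difference above 0, with a median of 0.21. Kcnj13, with the smallest difference of 0.01, had overlapping groups, and 2 genes rose (Ttr and Slc4a5). The summed signal of the 7 genes was 13.00 to 13.05 in CGP, against 12.32 to 12.40 in CON. Ttr, the highest signal in that sum, had a difference of 0.84. Of 6 thalamus genes all had a difference above 0, with a median of 0.24, and 2 rose (Prkcd and Ptpn3), with summed signals of 13.08 to 13.11 in CGP, against 12.82 to 12.87 in CON. Of the marker genes called in these 4 lists, Ttr kept its call in all 6 fits on 5 arrays, Prg4 in 4, Ogn and Slc6a3 in 1 each, and the other 5 genes in none, with no change of direction. The part of these tissues in the Cartpt difference was not tested.

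Npy (probeset 10538247) encodes neuropeptide Y, which is made with AgRP in the arcuate nucleus and also by interneurons elsewhere in the forebrain. Its signals were 11.51, 11.44 and 11.47 on the CGP arrays, against 11.64, 11.51 and 11.56 on the CON arrays. The groups met at 11.51, where the highest CGP array and the lowest CON array lay. The difference was -0.09 (standard error 0.044, adjusted p = 0.487 in limma), with an interval of 0.873-fold to 1.01-fold. Without CON replicate 1, the highest array, the difference was -0.06.

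Neither melanocortin receptor passed. Mc3r (probeset 10478959), which acts in part as an autoreceptor of the arcuate circuit, was at 8.69, 8.59 and 8.69 in CGP, against 8.61, 8.69 and 8.64 in CON. Its groups overlapped throughout, with a difference of 0.01 (standard error 0.044, adjusted p = 0.964 in limma) and an interval of 0.938-fold to 1.08-fold. Mc4r (probeset 10459512), the receptor of the paraventricular nucleus whose loss causes obesity in mice, was at 7.84, 8.00 and 7.98 in CGP, against 8.06, 7.96 and 8.14 in CON. The groups overlapped because CON replicate 2 lay below 2 of the CGP arrays. The difference of Mc4r was -0.12 (standard error 0.061, adjusted p = 0.535), with an interval of 0.837-fold to 1.02-fold. It was -0.06 without CGP replicate 1, the lowest array, -0.07 without CON replicate 3, the highest, and -0.16 without CON replicate 2.

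The hormone receptors showed the smallest differences after Mc3r. Lepr (probeset 10506301), the leptin receptor, lay closest to the filter at 6, with 6.70, 6.70 and 6.71 in CGP, against 6.68, 6.83 and 6.69 in CON. CON replicate 2 stood above the other 5 arrays, which lay between 6.68 and 6.71. The difference was -0.03 (standard error 0.048, adjusted p = 0.867 in limma), and without CON replicate 2 it was 0.02. The probeset covers several annotated Lepr transcripts, so that the signalling long form and the short forms are not separated. Ghsr (probeset 10491098), the ghrelin receptor, was at 8.26, 8.40 and 8.40 in CGP, against 8.43, 8.33 and 8.39 in CON. Its difference was -0.03 (standard error 0.050, adjusted p = 0.862), and it was 0.01 without CGP replicate 1, the lowest array. The intervals were 0.909-fold to 1.06-fold for Lepr and 0.905-fold to 1.06-fold for Ghsr.

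**Figure D3:**
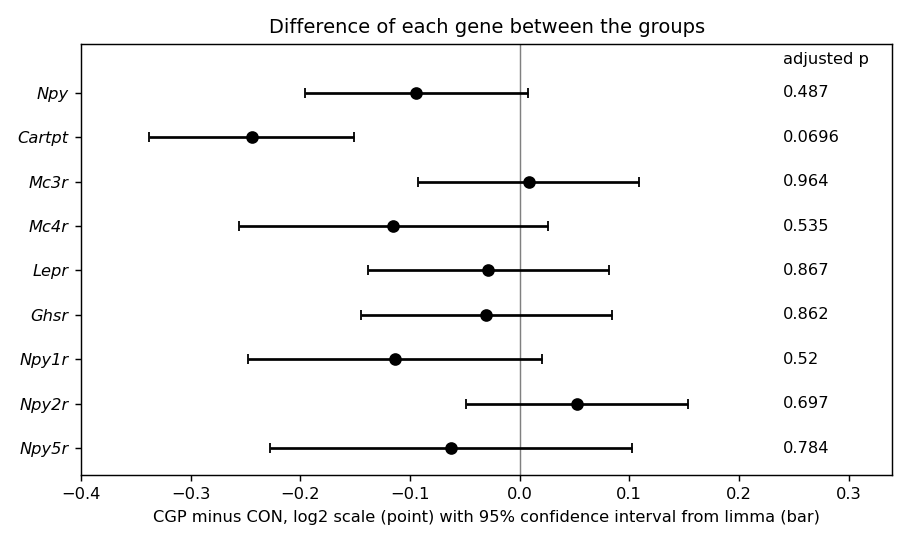
Log2 difference CGP minus CON of each of the 9 genes (points) with its 95% confidence interval from limma (bars) and adjusted p (right). The interval of Cartpt, -0.34 to -0.15, does not reach 0, but its adjusted p of 0.0696 does not pass. The other 8 intervals include 0.

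The receptors of neuropeptide Y differ in place and role. Npy1r (probeset 10572070) and Npy5r (probeset 10578973) are postsynaptic receptors that carry much of the feeding response, and the genes are neighbours in the RefSeq annotation of assembly GRCm38.p6, read from opposite strands with no protein-coding gene between them. Npy1r was at 7.87, 7.86 and 7.70 in CGP, against 8.00, 7.91 and 7.87 in CON. The groups met at 7.87, the signal of the highest CGP and the lowest CON array. Its difference was -0.11 (standard error 0.058, adjusted p = 0.520 in limma), with an interval of 0.842-fold to 1.01-fold. Without CGP replicate 3, the lowest array, it was -0.06. Npy5r was at 7.33, 7.25 and 7.37 in CGP, against 7.30, 7.55 and 7.29 in CON. Here CON replicate 2 alone stood above the CGP arrays, and without it the difference of -0.06 (standard error 0.072, adjusted p = 0.784) became 0.02.

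Npy2r (probeset 10498965), the presynaptic receptor through which neuropeptide Y restrains its own neurons, was the only gene besides Mc3r with a difference above 0, and that of Mc3r was between -0.01 and 0.04 with 1 array left out. It was at 7.82, 7.94 and 7.90 in CGP, against 7.85, 7.86 and 7.79 in CON. The groups overlapped, since CGP replicate 1 lay below CON replicates 1 and 2. The difference was 0.05 (standard error 0.044, adjusted p = 0.697 in limma), with an interval of 0.967-fold to 1.11-fold. It was 0.03 without CGP replicate 2 and 0.09 without CGP replicate 1. Across the 9 genes the bounds farthest from 0 lay between 1.08-fold for Mc3r and 1.26-fold for Cartpt, in either direction.

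The spread between arrays differed among the genes. The pooled SD was lowest for Cartpt (0.043) and highest for Npy5r (0.111), with a median of 0.061 over the 9 genes, against 0.057 over all tested probesets. The difference was 5.75 times the pooled SD for Cartpt, 1.81 times for Npy and at most 1.35 times for the 7 receptors. The lowest signal lay on CGP replicate 1 for 2 genes, on CGP replicate 2 for 3 and on CGP replicate 3 for 2. The highest signals were less even, with CON replicate 1 holding those of 4 genes, Npy, Cartpt, Ghsr and Npy1r.

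**Figure D4:**
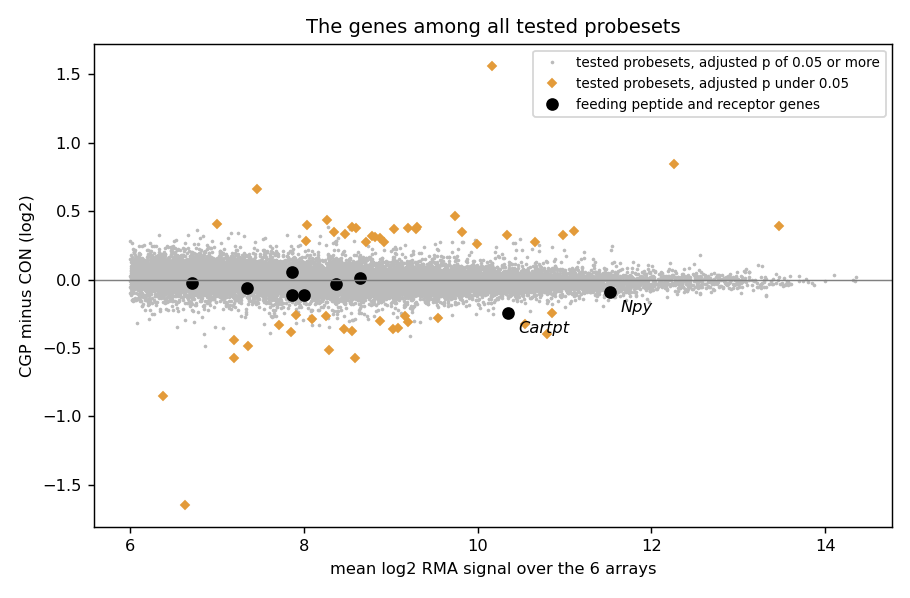
Log2 difference CGP minus CON of all 18239 tested probesets against their mean log2 RMA signal over the 6 arrays. Grey points did not pass the adjusted p of 0.05, orange diamonds did, and black circles are the 9 genes. Cartpt, at -0.24, has a larger difference in either direction than 99.1% of all tested probesets, though some grey points lie farther out. The other 8 genes lie between -0.12 and 0.05.

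Other genes of the same pathways, 60 in 8 lists, were read from the same fit, and 56 were tested. Of these, 1 rose, none fell and 55 did not pass, against 0.154% higher and 0.126% lower over all tested probesets. The median difference of the 56 genes was 0.01. The gene that rose was Pomc, the source of the α-MSH that AgRP opposes, with 10.92, 11.02 and 10.89 in CGP, against 9.38, 9.35 and 9.43 in CON (difference 1.56, adjusted p = 9.37e-06 in limma). It passed in all 14 other settings of the fit, with differences of 1.52 to 1.59. Pomc is also a hormone gene of the pituitary. Of 6 anterior pituitary markers 2 rose, Gh by 0.39 and Lhb by 0.46, and 5 had a difference above 0. Of all 18239 tested probesets, 0.154% rose and 8736 had a difference above 0. The other markers did not pass, with 0.10 for Prl, 0.15 for Fshb, 0.04 for Cga and -0.04 for Tshb. The calls of Gh and Lhb each passed in 5 of the 14 settings and in none of the 6 with 1 array left out. The summed signal of the 6 markers was 14.72 to 14.77 in CGP, against 14.48 to 14.54 in CON. Gh and Prl had the highest signals in that sum. The part of these markers in the Pomc result was not tested. The other 7 melanocortin partners tested did not pass. Prcp, whose product degrades α-MSH, had a difference of -0.13 (adjusted p = 0.347), and the prohormone convertase gene Pcsk1 had one of -0.10 (adjusted p = 0.585).

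None of 4 other genes listed with the neuropeptide Y family passed, with a median of 0.07. The largest differences were -0.12 for Dpp4, a peptidase gene outside the family, and 0.10 for the peptide YY gene Pyy. Of 12 genes around leptin receptor signalling none passed, with a median of 0.01. The largest were -0.08 for Leprot, the neighbour of Lepr, and 0.08 for Stat5a, while Socs3, the feedback inhibitor that leptin induces, had 0.08 and Stat3, its main transducer, -0.06. Of 7 genes of ghrelin and the AMPK route none passed, with 0.08 for the brain carnitine palmitoyltransferase gene Cpt1c and 0.07 for Mboat4, whose product acylates ghrelin.

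Of 7 transcription factors of AgRP and POMC neurons none passed, with a median of 0.004, and the largest were -0.14 for Nkx2-1 and 0.10 for Nhlh2. Bsx, which drives Npy and Agrp in the arcuate nucleus, had -0.08 (adjusted p = 0.506 in limma). None of 6 genes of neurons targeted by the peptides passed, with -0.11 for Sim1, which marks the paraventricular neurons that carry Mc4r, and 0.09 for Crhr2. Of 7 other appetite receptors none passed, with -0.09 for the serotonin receptor gene Htr1b and -0.07 for the calcitonin receptor gene Calcr. Of 5 other arcuate peptides none passed either. Tac2, the neurokinin B gene, was at 11.42, 11.40 and 11.39 in CGP, against 11.23, 11.31 and 11.21 in CON, with a difference of 0.15 (adjusted p = 0.253), and the growth hormone-releasing hormone gene Ghrh had -0.10.

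**Figure D5:**
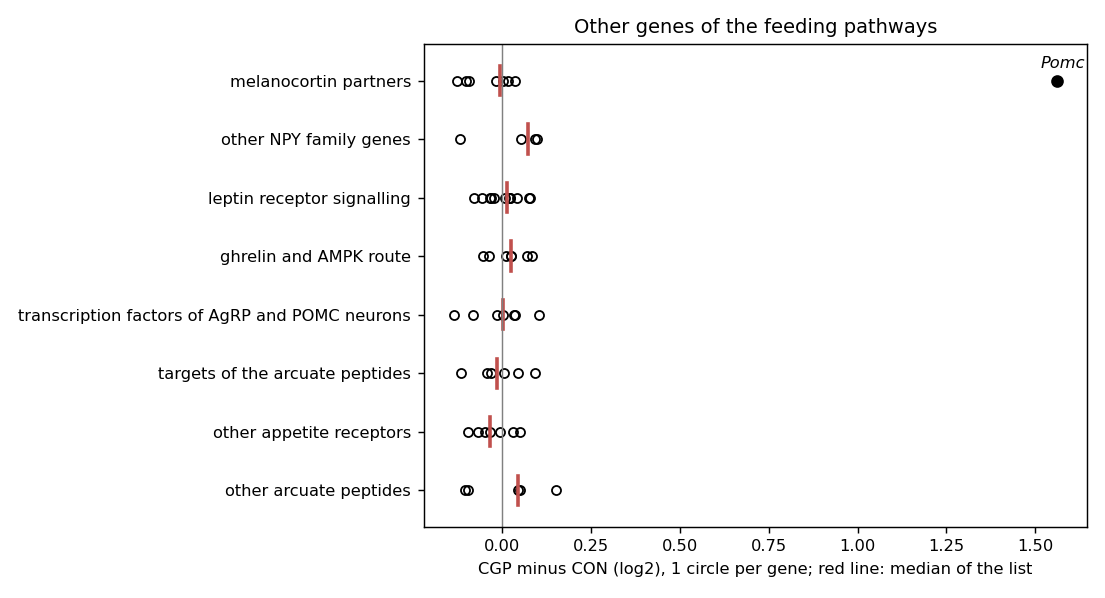
Log2 difference CGP minus CON of the tested genes in 8 lists of feeding pathway genes, 1 circle per gene, with the median of each list as a red line and genes past the adjusted p of 0.05 filled. Pomc, at 1.56, is the only filled circle, and all other genes lie between -0.14 and 0.15.

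By array profile, the genes most like Cartpt were Supt16, a histone chaperone subunit gene, and the interferon-induced Ifitm2 and Ifitm3. Their values, centred on the gene's own mean, differed from those of Cartpt by a root mean square of 0.012, 0.019 and 0.023 over the 6 arrays, and 51 genes lay within 0.05. Ifitm2 and Ifitm3 are similar in sequence, and their probes may share signal. For Npy the nearest were Cdc5l, Glo1 and Prxl2c at 0.011 to 0.012, and 1825 genes lay within 0.05, so that the profile of Npy was a common one.

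The tissue was checked against its markers because the labels name hypothalamus as the source, while 1 protocol line speaks of adrenal glands. The signals of 10 hypothalamic markers lay between 6.93 and 12.56, and those of 7 adrenal markers between 5.86 and 7.11. The ranges met, and signals of different probesets give no order of the tissues. None of the 10 hypothalamic markers and of the 6 adrenal markers tested passed between the groups, with -0.14 for Nkx2-1 and 0.12 for Star as the largest. Of the hypothalamic markers 6 had a difference below 0 and 4 above, with a median of -0.01. For Trh, Nkx2-1, Six6 and Sim1 every CGP array lay below every CON array, and for Oxt above. Of all tested probesets, 9.95% were separated downwards and 7.59% upwards. None of 4 striatal and 4 cortical and hippocampal markers passed, with 0.10 for Rgs9 and -0.06 for Emx1 as the largest.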

How the data were processed

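The authors deposited 1 table of log2 RMA signals, with 28471 probesets on 6 arrays. RMA corrects background, sets all arrays to a common distribution by quantile normalization, takes log2 and summarises probes by median polish, and this compresses differences of dim probesets. The submitters' processing notes name RMA and Partek. Versions and the probeset build are not given in the sources used, so that no coordinates are reported. Array medians lay between 8.19 and 8.21, and arrays correlated at 0.996 to 0.998. Depth has no counterpart on arrays, whose number limits the precision.

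Genes came from the GEO platform annotation, which gave 1 gene for 18690 probesets, several for 1163 and none for 8618. Of the single-gene probesets, 18620 matched RefSeq (GRCm38.p6) by Entrez identifier. A mean signal below 6 removed 451. The difference CGP minus CON was fitted without covariates to the 6 arrays in limma 3.58.1 under R 4.3.3 (lmFit, eBayes), with Benjamini-Hochberg adjustment over 18239 probesets. "Rose" and "fell" mean an adjusted p under 0.05. Steps were tested on simulated data.

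The members, lists, tests and alternatives were chosen with earlier results of these data known. Named are all members, every list gene that passed, otherwise the 2 largest differences of a pathway list and the largest of a marker list. Pmch, Ucn, Socs3, Stat3 and Bsx are named for their roles and were chosen after their values were seen. Kcnj13 and Pitx3 are named as the smallest differences of their lists. Prl, Fshb, Cga and Tshb complete the tested pituitary markers. They too were chosen after their values were seen.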

Additional observations from a re-analysis of the deposited data

How the results depend on the processing

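Over 14 refits, Npy, Cartpt, Mc4r, Npy1r and Npy2r kept their direction. Among all members, 6 of 125 gene-by-setting values changed sign, all with 1 array left out. They were 3 of 14 for Mc3r, 1 of 13 for Lepr, 1 of 14 for Ghsr and 1 of 14 for Npy5r. None of these genes passed. Only Cartpt passed in any refit, so that the members called lower in CGP became 1 with the filter at 7 (-0.24, adjusted p = 0.0342 in limma), with a trended and robust eBayes step (-0.24, adjusted p = 8.41e-04) and with array weights (-0.26, adjusted p = 0.0388), and stayed at 0 otherwise. Over all probesets, the 28 higher and 23 lower became 44 and 37 with the filter at 7, 2 and 2 with unnamed probesets added, 113 and 136 with the trended step, 4 and 2 without moderation, and 39 and 38 with array weights, for which the cause was not tested. With 1 array left out they were 2 to 5 and 3 to 8, from fewer arrays. Replicate numbers gave no pairing: deviations of arrays with equal numbers had correlations of 0.078, -0.18 and 0.11, and in each group 1 of 3 arrays was closest to its own number. Under a replicate block, 2 probesets were higher and 4 lower, and Cartpt was at -0.24 (adjusted p = 0.196). Each member had 1 probeset, so that averaging probesets gave no other value, and Lepr lay below the filter at 7. Permutation of 6 arrays cannot go below p = 0.1 and says nothing on stability. Signals near 6, such as Lepr, are limited by background.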
